A study of Homo sapiens with 4 samples.

Results

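Chemokines are small secreted proteins that guide leukocytes, and their receptors are G protein-coupled receptors on the cell surface. The genes described here are the autosomal protein-coding genes whose symbols start with CCL, CXCL, CCR or CXCR and a number, together with XCL1, XCL2, CX3CL1, CX3CR1, XCR1 and ACKR1 to ACKR4. Of 19126 autosomal protein-coding genes in the RefSeq annotation of GRCh38.p14, 65 were considered under this rule. Of these, 63 could be placed on a chromosome, among 18991 genes placed in the same way. The 2 that could not, CCL3L1 and CCL4L1, are annotated on alternate sequence and were not analysed here. CXCR3 lies on the X chromosome and is outside the rule. The 63 genes are 43 ligands, 16 signalling receptors and 4 atypical receptors.

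The study asked how the Menin inhibitor SNDX-50469 alters active chromatin in AML cells. MOLM13 is a line of human AML cells that carries MLL1-r, a rearrangement of the MLL1 (KMT2A) gene whose fusion proteins need Menin on chromatin. ChIPmentation, in which the Tn5 transposase inserts sequencing adapters into immunoprecipitated DNA, was used to map H3K27Ac, an acetyl mark on histone H3 at active enhancers and promoters. There is 1 library of control cells, whose label gives no treatment while the protocol names a DMSO arm, and 1 library of cells exposed to SNDX-50469 at 500 nM during 16 h; both are of the same single line and medium. There are also 2 input libraries, 1 per condition, which are not used here.

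The authors called broad peaks in each library separately, and the 2 peak lists differ in size. The control list holds 245875 peaks over 224 Mb and the SNDX-50469 list 54061 peaks over 29.4 Mb. The smallest fold over background in a list was 2.66 in control and 3.46 with SNDX-50469, so a weak region needed more enrichment to enter the second list. Read totals are not in the lists, and a difference in sequencing depth or in background between the libraries cannot be told apart from an effect of the drug. With 1 library per condition no difference below has a replicate check, and no p-value is given. Peaks were compared between the lists by position, since fold values are relative to each library's own background. All 10 myeloid marker genes looked up, among them SPI1, CEBPA and MPO, had control peaks within 5 kb and 9 had SNDX-50469 peaks. The 6 T cell markers had control peaks at 5 genes and none with SNDX-50469. Over all autosomal protein-coding genes 80.0% had a control peak and 54.0% a SNDX-50469 peak. Markers of other lineages, given at the end, also had SNDX-50469 peaks, among them 3 of 5 B cell markers.

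As background, CC and CXC ligands are named for the spacing of their first cysteines, and XC and CX3C ligands are small separate families. Inflammatory ligands such as CXCL8 and CCL2 are switched on by NF-kB and AP-1 in stimulated cells, while CXCL9, CXCL10 and CXCL11 are interferon-induced. Most signalling receptors couple to Gi proteins and turn a ligand gradient into movement. Atypical receptors bind chemokines without this signalling and act mainly as scavengers. In myeloid cells CXCR4 holds progenitors in the marrow near CXCL12, CCR2 releases monocytes, and CXCR2 draws neutrophils.

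The promoters of 6 genes are shown first, since they differ in whether a peak was called there after treatment. The 250 bases before the 5′ end are printed below as transcribed, from RefSeq on GRCh38.p14. In each of the 6 they lie wholly within a control peak. CXCR4, CCR2 and CXCR2 are shown because a SNDX-50469 peak also lies over the promoter, and CCR1, CXCL8 and CCL20 because none does. Capitals mark matches to 6 short motifs, searched on both strands and described further on.
CXCR4, chr2:136118150-136118399, minus strand, 250 bases under the SNDX-50469 peak: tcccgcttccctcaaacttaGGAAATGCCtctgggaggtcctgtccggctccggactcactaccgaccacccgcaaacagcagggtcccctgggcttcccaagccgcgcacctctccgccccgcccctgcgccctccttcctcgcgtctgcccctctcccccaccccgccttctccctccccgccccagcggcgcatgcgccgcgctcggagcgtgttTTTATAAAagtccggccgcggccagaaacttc
CCR2, chr3:46353861-46354110, plus strand, 166 bases under the SNDX-50469 peak: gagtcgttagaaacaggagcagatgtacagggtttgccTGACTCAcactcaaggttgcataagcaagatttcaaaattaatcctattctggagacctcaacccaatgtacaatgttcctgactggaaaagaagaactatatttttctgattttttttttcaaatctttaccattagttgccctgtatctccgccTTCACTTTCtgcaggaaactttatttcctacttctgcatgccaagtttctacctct
CXCR2, chr2:218125778-218126027, plus strand, 250 bases under the SNDX-50469 peak: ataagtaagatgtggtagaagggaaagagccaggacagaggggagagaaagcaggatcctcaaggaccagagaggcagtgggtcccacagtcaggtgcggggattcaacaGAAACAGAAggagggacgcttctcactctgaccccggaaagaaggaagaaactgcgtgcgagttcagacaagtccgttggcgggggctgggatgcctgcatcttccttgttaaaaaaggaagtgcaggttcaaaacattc
CCR1, chr3:46208314-46208563, minus strand, 0 bases under a SNDX-50469 peak: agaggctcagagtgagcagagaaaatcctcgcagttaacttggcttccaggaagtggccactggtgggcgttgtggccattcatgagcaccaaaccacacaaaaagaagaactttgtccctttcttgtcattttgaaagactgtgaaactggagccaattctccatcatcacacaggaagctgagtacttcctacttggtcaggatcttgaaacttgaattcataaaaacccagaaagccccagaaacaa
CXCL8, chr4:73740319-73740568, plus strand, 0 bases under a SNDX-50469 peak: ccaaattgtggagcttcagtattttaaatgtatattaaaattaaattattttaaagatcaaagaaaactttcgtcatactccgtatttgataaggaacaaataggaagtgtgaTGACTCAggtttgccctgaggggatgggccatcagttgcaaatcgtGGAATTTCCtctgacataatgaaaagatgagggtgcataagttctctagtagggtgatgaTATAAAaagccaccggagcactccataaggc
CCL20, chr2:227813592-227813841, plus strand, 0 bases under a SNDX-50469 peak: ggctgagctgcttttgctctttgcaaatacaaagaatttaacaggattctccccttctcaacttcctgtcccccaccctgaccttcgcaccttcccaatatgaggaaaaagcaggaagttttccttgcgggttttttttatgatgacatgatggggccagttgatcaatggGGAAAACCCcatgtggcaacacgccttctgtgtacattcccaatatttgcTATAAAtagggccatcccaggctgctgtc

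Covered length is the number of bases under a peak between 5 kb before and 5 kb after the gene, and the share of control covered length that also lies under a SNDX-50469 peak is called the kept share and given in percent. A control peak was present at 52 of the 63 genes (82.5%), against 80.0% of all autosomal protein-coding genes. After SNDX-50469 a peak was present at 19 of the 63 (30.2%), against 54.0% of all genes. All 52 genes with a control peak had a shorter covered length in the SNDX-50469 library, where 98.1% of all genes with a control peak did. None of the control covered length was kept at 35 of the 52 (67.3%), against 44.2% of all genes with a control peak. No gene had a SNDX-50469 peak without a control peak, and 11 had a peak in neither list.

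Summed over the 63 genes, 328191 bp were covered in control and 31633 bp with SNDX-50469. The kept part was 30653 bp, or 9.34%, where over all genes it was 11.6%. For the 52 genes the kept share had a median of 0, against 2.57% over all genes with a control peak. Their control covered length had a median of 5632.5 bp, against 5991 bp over all genes with a control peak. Most of these genes are short, so they were also set beside genes of like length, a split at their median body length of 4915 bp that was chosen after the values were seen. Of all genes no longer than that, 58.6% had a control peak and 35.1% a SNDX-50469 peak, against 81.2% and 28.1% of the 32 chemokine and receptor genes among them. None of the control length was kept at 46.5% of the short genes with a control peak, against 73.1%, and the summed kept share was 22.3%, against 14.3%. Among the longer genes 57.4% had a SNDX-50469 peak, against 32.3% of the 31, none was kept at 43.9%, against 61.5%, and the summed kept share was 11%, against 6.80%. Beside short genes the gap in SNDX-50469 peaks was thus narrower than beside all genes, but fewer of the short genes had a control peak. The gaps in the share of genes that kept none and in the summed kept share were wider beside short genes. Ranges of neighbouring genes overlap, and a peak under 2 genes counts once for each.

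**Figure D1:**
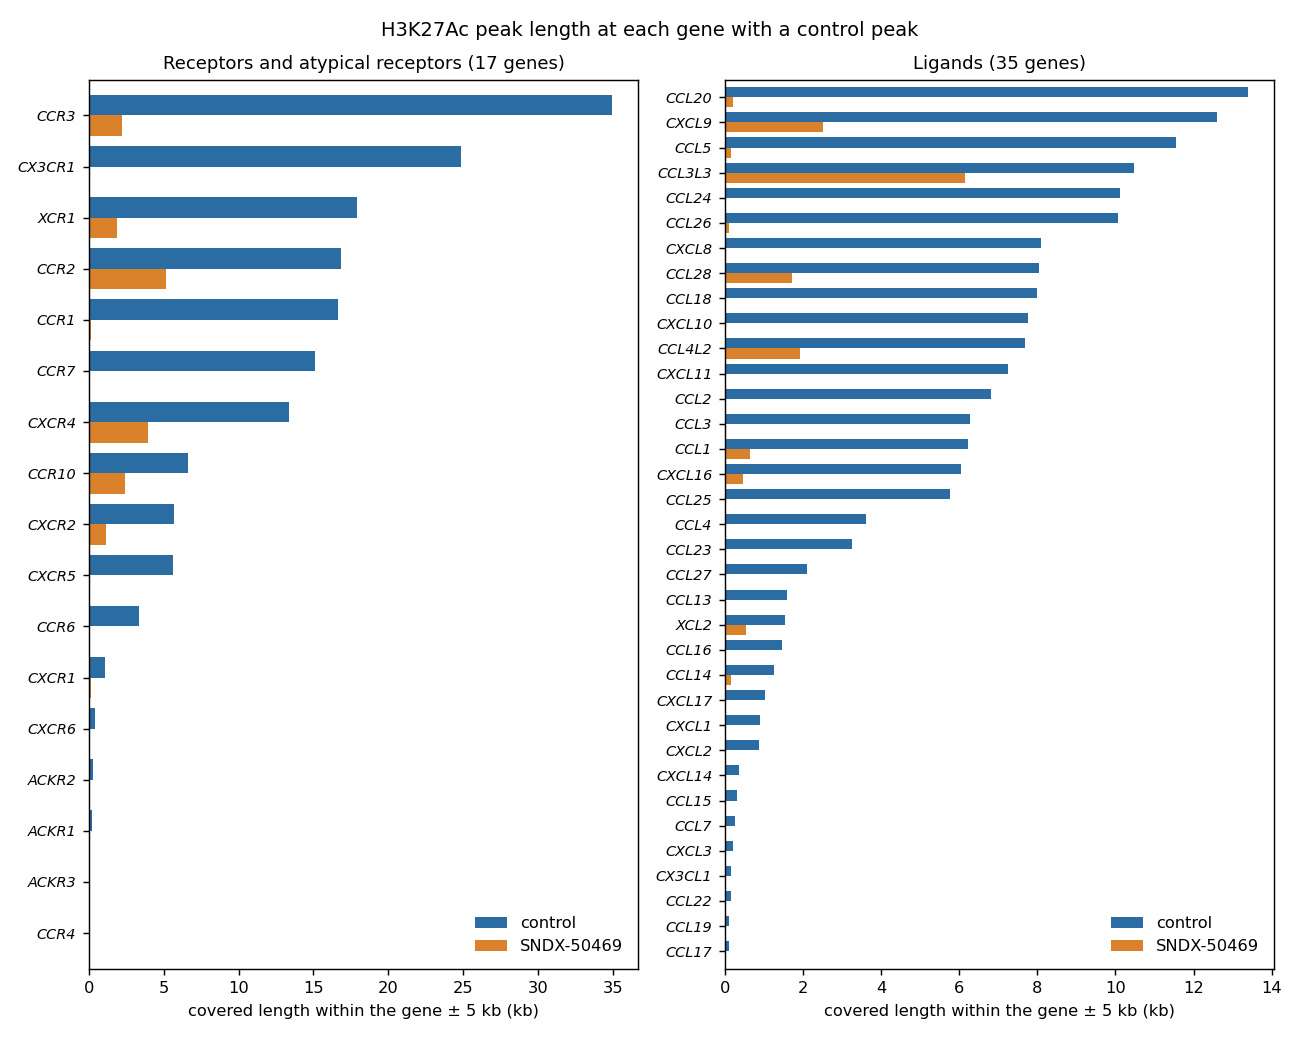
Covered length in kb within the gene and 5 kb on both sides, in control and with SNDX-50469, for the 17 receptor and atypical receptor genes and the 35 ligand genes with a control peak; each bar is 1 library. CCR3 has the longest control bar, CX3CR1 and CCR7 have no SNDX-50469 bar, and CCL3L3 has the longest SNDX-50469 bar, 6153 bp.

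Control covered lengths were longer at receptors than at ligands. Of the 16 receptor genes, 14 had a control peak (87.5%), with a median covered length of 9979 bp, and 8 had a SNDX-50469 peak (50%). Of the 43 ligand genes, 35 had a control peak (81.4%), with a median of 3607 bp, and 11 had a SNDX-50469 peak (25.6%). Over all genes the shares were 80.0% with a control peak and 54.0% with a SNDX-50469 peak, so the receptors lay near the background on both counts and the ligands below it with SNDX-50469. Many ligand genes are short, and among all genes of at most 4915 bp the SNDX-50469 share was 35.1%, nearer to the ligands' 25.6%. Only 58.6% of those short genes had a control peak, however, against 81.4% of the ligands. Where a control peak was present, none of the control length was kept at 46.5% of the short genes, against 71.4% of the ligands. Receptors and ligands were not compared at like gene length. The summed kept share was 10.4% for receptors and 8.38% for ligands, against 11.6% over all genes. None of the control length was kept at 7 of the 14 receptors (50%) and 25 of the 35 ligands (71.4%), against 44.2% of all genes with a control peak.

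CXCR4, the receptor for CXCL12, lay under a single control peak of 16330 bp that ran over the whole gene and its 5′ end. Within its range 13331 bp were covered in control and 3982 bp with SNDX-50469, a kept share of 29.9%. In place of 1 broad peak the SNDX-50469 list held 3 peaks. The strongest, chr2:136115958-136119131, was 3174 bp wide, covered the 5′ end and ranked 1325 of 54061 by fold within its list. The control peak ranked 12128 of 245875 within its own. The other 2 peaks, of 449 and 359 bp, lay on either side of it, 5019 and 1806 bp from the 5′ end. Most of what remained over CXCR4 was thus the peak over the promoter, with short stretches of both flanks still called. The partner ligand CXCL12 had no peak in either list.

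CCR2, the receptor that monocytes use to follow CCL2, lay under a control peak of 30203 bp. The range of CCR2 was covered over all of its 16830 bp in control and over 5154 bp with SNDX-50469, a kept share of 30.6% spread over 9 peaks. The one of 2074 bp lay over the CCR2 5′ end. As at CXCR4, a wide peak in control was met by separate narrower peaks with SNDX-50469, 1 of them over the promoter.

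CCR1, which binds CCL3 and CCL5, lay under the widest control peak at any of these genes, 36156 bp at chr3:46181915-46218070. Its covered length was 16603 bp in control and 121 bp with SNDX-50469, a kept share of 0.729%. CCR3, the eotaxin receptor, had the longest control covered length of all 63 genes, 34927 bp over 24 peaks, of which 1 is the wide peak over CCR1. It had 2201 bp in 3 peaks with SNDX-50469 (6.30% kept), none of which reached its 5′ end. XCR1, the receptor for XCL1 and XCL2, had 17932 bp in control and 1895 bp with SNDX-50469 (9.98% kept). These 3 receptors kept little within their ranges, and at none of them was the 5′ end under a SNDX-50469 peak. The 5′ ends of CCR1 and CCR3 lay in a control peak, and that of XCR1 was in a peak of neither list.

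CX3CR1, the fractalkine receptor of monocytes, was covered over 24837 bp in control and 0 bp with SNDX-50469, although its 5′ end lay in a control peak. Its strongest control peak, chr3:39247399-39266646, reached well beyond the range, and 4642 bp of that peak were kept. The 7 SNDX-50469 peaks in question lay between 5.35 and 15.4 kb from the gene. CCR7, which directs cells to lymph nodes, had 15076 bp in 7 control peaks and 0 bp with SNDX-50469. CXCR5, the receptor for CXCL13, had 5603 bp in control and 0 bp with SNDX-50469. No control length was kept within the ranges of these 3 receptors, and for CX3CR1 part of the same control peak was kept just beyond. With 50 kb on both sides in place of 5 kb, all 3 had a SNDX-50469 peak.

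CCR10, which binds CCL27 and CCL28, had 6627 bp in control and 2435 bp with SNDX-50469, a kept share of 36.7%, the highest of any receptor. All of the kept length lay in the stronger of its 2 control peaks; the other, which holds the 5′ end of PLEKHH3, kept none. CXCR2, a receptor for CXCL8, had 5662 bp in control and 1117 bp with SNDX-50469 (19.7% kept). That remnant was a single peak over its 5′ end. CXCR1, the other receptor for CXCL8, had 1064 bp in control and a peak of 119 bp with SNDX-50469 that shared no base with control. CCR6, CXCR6 and CCR4 had 3320, 388 and 81 bp in control and none with SNDX-50469, and CCR8 and CCR9 had no peak.

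**Figure D2:**
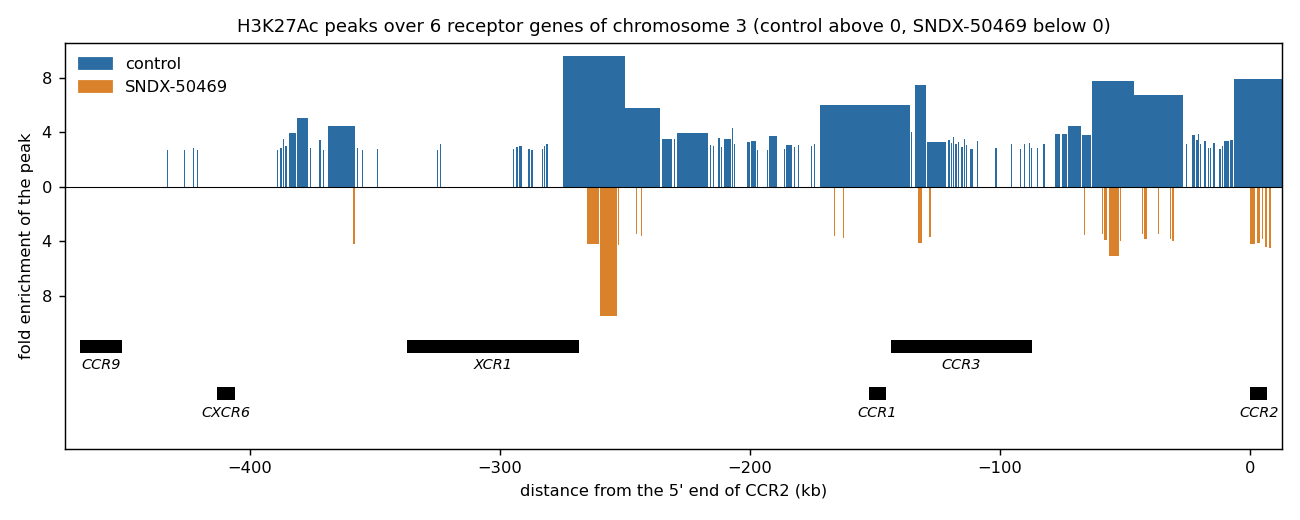
H3K27Ac peaks over 6 receptor genes of chromosome 3, against distance in kb from the 5′ end of CCR2; the height is the authors' fold over the background of each library, control above 0 and SNDX-50469 below 0, and black bars are genes. Control peaks fill much of the span and the SNDX-50469 peaks are few and narrow, except the one of fold 9.50 beside XCR1.

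Of the 16 receptors, CCR9, CXCR6, XCR1, CCR1, CCR3 and CCR2 lie near each other on chromosome 3, within 485 kb at chr3:45881064-46365940 with the 5 kb added. Over that whole span 240357 bp, 49.6% of it, were covered in control and 30083 bp, 6.20% of it, with SNDX-50469. The number of peaks was 122 in control and 35 with SNDX-50469, and 12.5% of the control length was kept. The strongest peak of both lists lay in the same place beside XCR1. The SNDX-50469 peak, chr3:46094198-46100838, was 6641 bp wide and ranked 36 in its list. It lay 8.35 kb from XCR1 and 66.7 kb from its 5′ end, outside the range of every gene described here, within a control peak of 24648 bp that ranked 366. It was the only SNDX-50469 peak of this span with a −log10 q of at least 5, against 8 control peaks.

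Among the ligands, the CCL group on chromosome 17 at chr17:35866491-36217873 held the longest coverage over its whole span. Its 10 genes are CCL5, CCL16, CCL14, CCL15, CCL23, CCL18, CCL3, CCL4, CCL3L3 and CCL4L2. Over the span 133700 bp were covered in control and 23621 bp with SNDX-50469, and 16.7% of the control length was kept. The span includes sequence between the genes, and most of the 22371 bp kept lay there, outside the range of every gene of the group. Within the ranges, 6153 bp were kept at CCL3L3, 1922 bp at CCL4L2, 160 bp at CCL5 and none at the others. The CCL3L3 and CCL4L2 values are uncertain, as described below. Of its control peaks, 16 had a −log10 q of at least 5, and none of the 25 SNDX-50469 peaks did. Few SNDX-50469 peaks reached that level anywhere, 938 of 54061. All 10 genes had a control peak and 4 had a SNDX-50469 peak.

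CCL3L3, a near copy of the inflammatory ligand CCL3, kept more than any other gene here. It had 10464 bp in control and 6153 bp with SNDX-50469, a kept share of 58.8%. Its strongest control peak, chr17:36190162-36194251, was the strongest at any of the 63 genes, ranking 176 of 245875 with a fold of 10.7, and 92.4% of it was kept. A second SNDX-50469 peak of 2115 bp covered the 5′ end. CCL4L2, a near copy of CCL4, had 7691 bp in control and 1922 bp with SNDX-50469 (25.0% kept). Reads from near-identical copies may have been placed at either copy or at the copies on alternate sequence, so these 2 values are uncertain. Without them the summed kept share of the remaining 61 genes was 7.28%.

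CCL3 and CCL4 themselves, inflammatory ligands made by activated myeloid cells, kept nothing within their ranges. Placement of reads between near-identical copies may affect these values too. CCL3 had 6270 bp in 7 control peaks and CCL4 3607 bp in 5, both with 0 bp after SNDX-50469. The widest control peak of CCL4, of 2275 bp, crossed the edge of the range. A SNDX-50469 peak of 150 bp lay under it, 5.33 kb from the gene. CCL5, which attracts monocytes and T cells, had 11561 bp in control and 160 bp with SNDX-50469 (1.38% kept). Its strongest control peak, of 2327 bp over the 5′ end, was not kept. CCL18 and CCL23, made by monocytes and macrophages, had 7994 and 3244 bp in control and none with SNDX-50469. CCL14 had 1263 bp in control and a SNDX-50469 peak of 156 bp that shared no base with it, and CCL16 and CCL15 had 1459 and 320 bp in control only.

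The second CC group on chromosome 17 holds CCL2, CCL7, CCL11, CCL8, CCL13 and CCL1. CCL2, the monocyte attractant, had 6813 bp in control over 7 peaks and 0 bp with SNDX-50469. Its strongest control peak, of 12087 bp, reached beyond the range, and 449 bp of that peak were kept, 12.3 kb from the gene. CCL1, a ligand of CCR8, had 6223 bp in control and 652 bp with SNDX-50469 (10.5% kept), in a peak that did not reach its 5′ end. CCL13 and CCL7 had 1600 and 249 bp in control only, and CCL11 and CCL8 had no peak. Coverage over this group came to 14448 bp in control and 652 bp with SNDX-50469, all of the latter at CCL1.

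Elsewhere, CCL20, the ligand of CCR6, was covered over 13397 bp in control, nearly its whole range (97.7%). A single SNDX-50469 peak of 216 bp remained (1.61% kept), 5558 bp from the 5′ end. The eotaxin genes CCL24 and CCL26, neighbours on chromosome 7, had 10111 and 10056 bp in control. CCL24 had 0 bp with SNDX-50469 and CCL26 113 bp (0.915% kept). CCL28, a mucosal ligand, had 8038 bp in 19 control peaks and 1720 bp in 6 SNDX-50469 peaks. Of those 1720 bp, 579 bp were outside control peaks, and the kept share was 14.2%. CCL25, the thymic ligand of CCR9, had 5765 bp in control only. CCL27 had 2090 bp, and CCL17, CCL19 and CCL22 had 103 to 144 bp, in control only, and CCL21 had no peak.

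**Figure D3:**
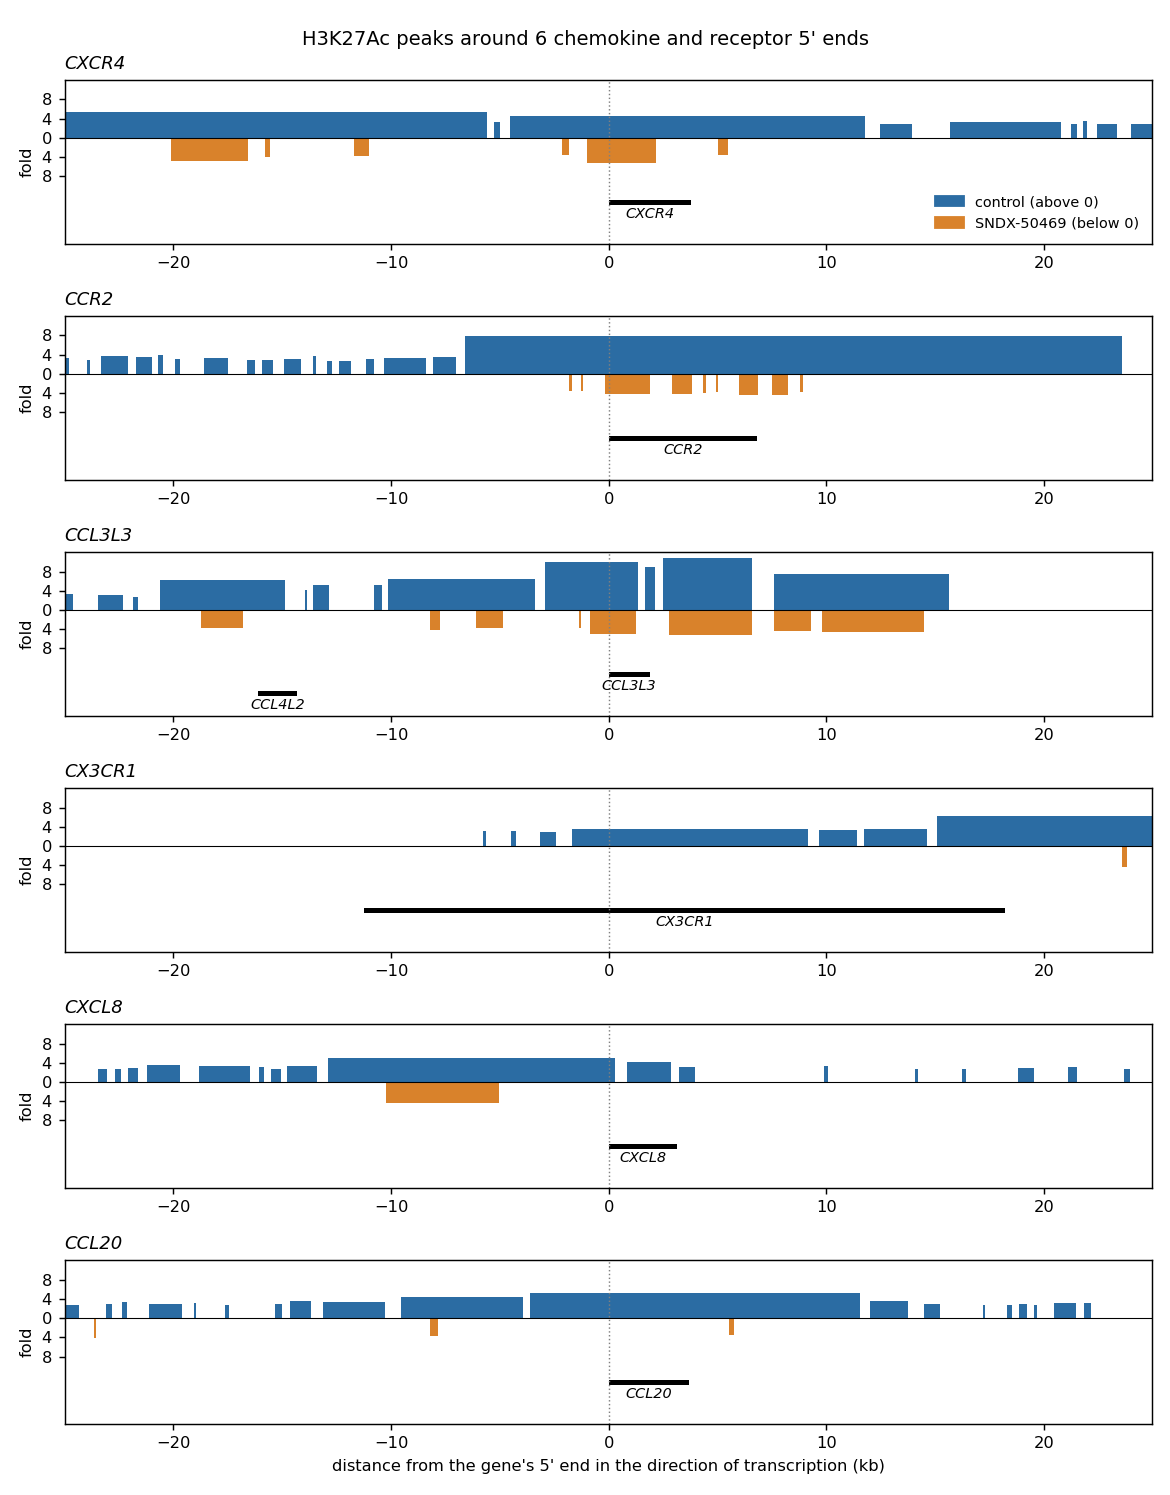
H3K27Ac peaks around the 5′ ends of CXCR4, CCR2, CCL3L3, CX3CR1, CXCL8 and CCL20, against distance in kb in the direction of transcription (the dotted line is the 5′ end); the height is the authors' fold over background in each library, control above 0 and SNDX-50469 below 0, and black bars are genes. SNDX-50469 peaks cover the dotted line at CXCR4, CCR2 and CCL3L3 and not at the other 3, and the CXCL8 panel shows the 5220 bp SNDX-50469 peak upstream of the gene.

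The neutrophil-attracting CXC ligands on chromosome 4 were covered mainly at CXCL8. CXCL8 had 8086 bp in 3 control peaks and 0 bp with SNDX-50469 within its range. Its control peak over the 5′ end was 13202 bp wide and extended upstream, and 5220 bp of it were kept as 1 SNDX-50469 peak, chr4:73730317-73735536, that ended 5.03 kb before the 5′ end, just outside the range. CXCL1, CXCL2 and CXCL3 had 903, 862 and 212 bp in control only. CXCL5 and CXCL6 had no peak. Over the whole span of the 6 genes 19367 bp were covered in control and 0 bp with SNDX-50469, the upstream CXCL8 peak lying just beyond its edge.

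The interferon-induced ligands of CXCR3, CXCL9, CXCL10 and CXCL11, lie together on chromosome 4. CXCL9 had 12603 bp in control and 2523 bp with SNDX-50469 (20.0% kept). The larger of its 2 SNDX-50469 peaks, of 2134 bp, lay 3663 bp from its 5′ end at the far end of the gene. CXCL10 had 7752 bp and CXCL11 7246 bp in control, and both had 0 bp with SNDX-50469. Of the 3 neighbours, CXCL9 thus held the part that remained, and its 5′ end was in a peak of neither list.

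CXCL16, a transmembrane ligand of CXCR6, had 6037 bp in control and 460 bp with SNDX-50469 (7.62% kept), and its strongest control peak covered the 5′ end of its neighbour MED11. XCL2 had 1529 bp in control and 534 bp with SNDX-50469 (34.9% kept), at the edge of its range 7696 bp from its 5′ end, and XCL1 had no peak. CXCL17, CXCL14 and CX3CL1 had 1013, 352 and 153 bp in control only. CXCL13, which attracts B cells, had no peak. The atypical receptors were nearly bare, with 260 bp at ACKR2, 234 bp at ACKR1 and 103 bp at ACKR3 in control, none with SNDX-50469, and no peak at ACKR4.

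The genes fall into grades by what they kept. The highest kept shares, from 25.0 to 58.8%, were found at 6 genes: CCL3L3, CCR10, XCL2, CCR2, CXCR4 and CCL4L2. A further 11 kept between 0.729% (CCR1) and 20.0% (CXCL9). Of the 35 that kept none, 11 had started with 5603 bp or more, 9 with 1013 to 3607 bp and 15 with 81 to 903 bp. Length in control therefore moved with the outcome. Among genes under 1 kb in control, 15 of 15 here and 97.2% of all genes kept none. From 1 to 5 kb the count was 9 of 10 (90.0%) against 60.8% of all genes. From 5 to 10 kb it was 8 of 14 (57.1%) against 30.9%, and from 10 to 20 kb 2 of 11 (18.2%) against 19.6%. Over 20 kb, CX3CR1 kept none and CCR3 kept some, against 9.20% of all genes keeping none. These counts are small, neighbours share peaks, and no test was made.

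**Figure D4:**
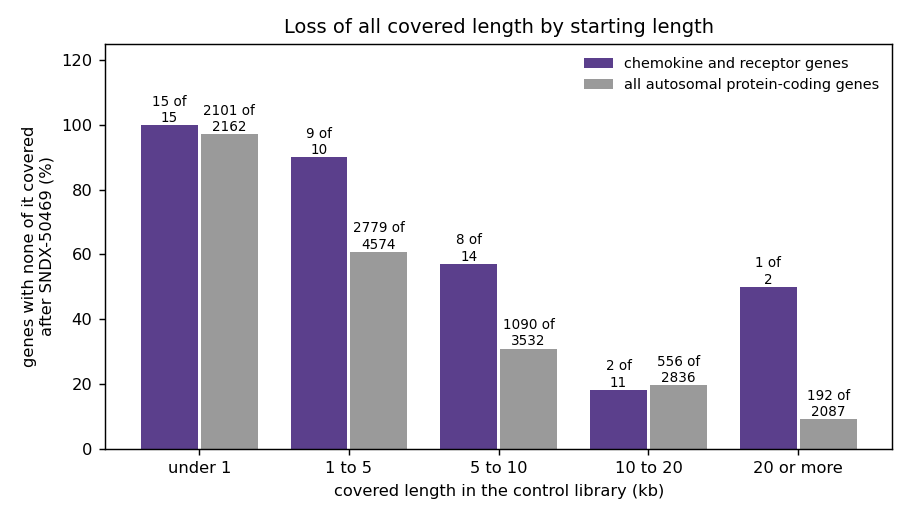
Percent of genes with a control peak whose control covered length was not covered at all after SNDX-50469, by control covered length in kb, for the chemokine and receptor genes and for all autosomal protein-coding genes; the counts stand on the bars. The share drops from the shortest class to the 10 to 20 kb class in both sets, from 100% to 18.2% and from 97.2% to 19.6%.

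Counted by peak, 267 control peaks lay in the ranges of the 63 genes and 28 of them shared at least 1 bp with a SNDX-50469 peak (10.5%, 95% Wilson interval 7.36 to 14.7%). This interval reflects counting error alone, and peaks close together are not independent. Over the whole control list 8.24% of peaks were shared. Kept control peaks were wide, with a median of 5664 bp against 373 bp for those not kept. Sharing 1 bp is easier for a wide peak, so this difference is partly built into the criterion. Of the 267, 6 (2.25%) had at least as many bases covered as not. From the other side, 41 SNDX-50469 peaks lay in the ranges and 35 of them (85.4%, 71.6 to 93.1%) fell on control peaks, against 57.0% of the whole SNDX-50469 list. A −log10 q of at least 5 was reached by 21 of the control peaks and by none of the SNDX-50469 peaks, whose highest fold was 5.25, at CXCR4. In the whole lists 9275 of 245875 control peaks and 938 of 54061 SNDX-50469 peaks reached it. With so few in the whole SNDX-50469 list, none among 41 is near the background.

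Because the lists were cut at different strengths, the genes were also counted with a −log10 p of at least 3.93, the weakest in the SNDX-50469 list, asked of both. The control list then held 45451 peaks over 129 Mb, fewer but wider than the 54061 SNDX-50469 peaks over 29.4 Mb. A control peak was left at 32 of the 63 genes (50.8%), against 64.4% of all genes. None of the control length was kept at 16 of the 32 (50%), against 34.8% of all genes with such a peak, and the summed kept share was 13.0%, against 18.2%. All 32 had a shorter covered length with SNDX-50469, as did 11834 of the 12224 genes over all with such a peak. CCL14 and CXCR1, left with no control peak, turned to 156 and 119 bp with SNDX-50469 only. Over all genes 1547 of 18991 had a longer covered length with SNDX-50469. The values of CXCR4, CCR2, CCR1 and CCL3L3 did not move. CCR10 kept 69.3% of the 3515 bp then left in control, and CCL26 kept 0. CX3CR1, CCR7, CXCL8 and CXCL11 still had 23697, 7051, 7339 and 6027 bp in control and none kept, and CXCR5 and CCL18 had no control peak at this strength.

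Position relative to the 5′ end also differed. Within 5 kb of the 5′ ends 162642 bp were covered in control and 12.1% were kept, and in the rest of the ranges 165549 bp and 6.58%. Of the 19756 bp kept near the 5′ ends, 4581 bp lay at CCL3L3 and 1922 bp at CCL4L2, whose values are uncertain. Of the 10897 bp kept in the rest, 1572 bp lay at CCL3L3. This split was not made over all genes, so it has no background value. The 5′ end itself lay in a control peak at 20 of the 63 genes (31.7%), against 40.5% of all genes with a known 5′ end. It lay in a SNDX-50469 peak at 4 (6.35%), against 18.5% of all genes. Those 4 are CXCR4, CCR2, CXCR2 and CCL3L3. Of the 20 genes with the 5′ end in a control peak, 20.0% also had it in a SNDX-50469 peak, where over all genes the figure was 41.4%. Genes with the 5′ end in a control peak and in no SNDX-50469 peak included CCR1, CCR3, CX3CR1, CXCR5, CXCL8, CXCL2, CXCL10, CXCL11, CCL2, CCL5 and CCL20.

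Promoter sequence from 250 bases before to 50 bases after the 5′ end was at hand for 44 of the 63 genes and for 15101 autosomal protein-coding genes. A control peak touched 20 of the 44 windows (45.5%), against 50.4% of all windows, and a SNDX-50469 peak touched 4 (9.09%), against 22.5%. CpG and GC content were counted only in the 250 bases before the 5′ end. There these genes were poor in CpG, with a median of 3 CpG dinucleotides against 17 in all windows. Their median GC content was 49.8% against 62.4%. Among the 20 windows with a control peak the median CpG count was also 3, against 21 in all windows with one. In the same 250 bases, the 4 genes that stayed covered ranged from 1 CpG at CCL3L3 and 2 at CCR2 to 7 at CXCR2 and 24 at CXCR4.

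Motifs were searched as letters on both strands, with N for any base, and a match is a description of the sequence and not a site. The TATA box (TATAAA) was present in this part of 15 of the 44 windows (34.1%), against 9.30% of all windows. An NF-kB form (GGNNNTTCC) was present in 14 (31.8%, against 18.6%), an AP-1 form (TGANTCA) in 7 (15.9%, against 5.00%) and an interferon response form (GAAANNGAA) in 12 (27.3%, against 6.04%). A PU.1 form (GAGGAAGT) was present in 2 (4.55%, against 2.09%) and a C/EBP form (TTGCNNAAT) in 0, against 1.74%. Median GC content differed between the sets (49.8% against 62.4%), and motif shares were not compared at like GC content. Matches may overlap, as the forward and reverse TATA letters do in CXCR4. Positions below are those of the first base of a match, counted back from the 5′ end. In the sequences printed above, CXCL8 holds an AP-1 match 137 bases before the 5′ end, an NF-kB match at 91 and a TATA box at 31. CCL20 holds an NF-kB match at 79 and a TATA box at 29, and CXCR4 an NF-kB match at 230 and TATA matches at 32 and 30. CCR2 holds an AP-1 match at 212 and an interferon response match at 56, CXCR2 an interferon response match at 140, and CCR1 none of the 6 sets of letters. Genes whose promoter stayed covered and genes whose promoter did not thus both carried matches.

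**Figure D5:**
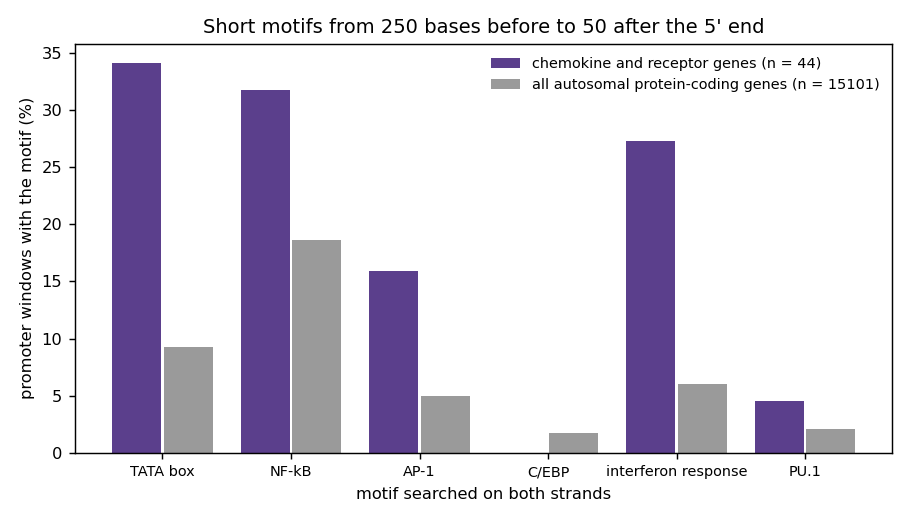
Percent of promoter windows that hold each of 6 short motifs on either strand, for the 44 chemokine and receptor genes in the promoter table and for all 15101 autosomal protein-coding genes in it. The bars of the chemokine and receptor genes are longer for the TATA box (34.1% against 9.30%) and the interferon response form (27.3% against 6.04%), and none of these genes holds the C/EBP form there. The sets were not matched for GC content.

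The rest of the pathway was described in the same way. Of 25 signalling genes downstream of chemokine receptors, 25 had a control peak and 23 a SNDX-50469 peak, with a summed kept share of 9.45% and a median of 6.89%. Over all genes 80.0% had a control peak and 54.0% a SNDX-50469 peak, with 11.6% of the summed length kept and a median of 2.57%; the 25 had long control coverage, with a median of 23568 bp against 5991 bp. The longest control coverage was at PREX1 (216618 bp, 6.70% kept) and DOCK2 (173199 bp, 0.946% kept), activators of Rac, and at the kinase PTK2B (135455 bp, 14.5% kept). The highest kept shares were at the Src family kinase LYN (28.8%) and at PIK3CG, the G protein-driven PI3 kinase (28.0%). The Src family kinase FGR, the phospholipase gene PLCB2 and the adaptor gene PXN (paxillin) kept 0.

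Desensitisation genes, which switch receptors off, had a control peak at 12 of 12 and a SNDX-50469 peak at 9 of 12, with 19.7% of the summed length kept (all genes: 80.0%, 54.0% and 11.6%). Most of that came from 1 gene, GRK2, the kinase that marks active receptors for arrestin, with 29735 bp in control and 26472 bp with SNDX-50469 (89.0% kept). RGS19, which speeds G protein shut-off, kept 27.5%, and the arrestin gene ARRB1, with the longest control coverage of the list (37889 bp), kept 5.33%. RGS14, RGS16, GRK3 and GRK5 (29470 bp in control) kept 0. The 12 autosomal NF-kB genes all had a control peak and 10 had a SNDX-50469 peak, with 13.4% kept against 11.6% over all genes. NFKBIE, an NF-kB inhibitor, kept 40.2% and BCL3 23.9%, while RELA and NFKB1, subunits of the factor, kept 0. IKBKB (48982 bp, 14.3% kept), TNFAIP3 (24243 bp, 13.2%) and RELB (22741 bp, 6.37%) had the longest control coverage.

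Of 12 other chemoattractant receptors, 10 had a control peak and 8 a SNDX-50469 peak, with 6.26% kept. These counts are near the 80.0% and 54.0% of all genes, whose summed kept share was 11.6%. The platelet-activating factor receptor PTAFR (39099 bp, 3.15% kept), FPR3 (26771 bp, 1.83%) and the oxysterol receptor GPR183 (20626 bp, 28.1%) had the longest control coverage. LTB4R2, a leukotriene receptor, kept 15.6%, and the complement receptors C5AR1 and C3AR1 and the formyl peptide receptors FPR1 and FPR2 kept 0. S1PR1 had 99 bp with SNDX-50469 and no control peak. Genes that process chemokines or their receptors, by cleavage, sulfation, ubiquitination or as surface proteoglycans, had a control peak at 10 of 10 and a SNDX-50469 peak at 5 of 10, with 4.67% kept, against the same 80.0%, 54.0% and 11.6% of all genes. Cathepsin G (CTSG) kept 41.0% and MMP9 6.55%. ADAM10, ITCH and TPST2 had the longest control coverage (27799, 27664 and 20108 bp), and ITCH, TPST1, TPST2 and SDC4 kept 0. Of 5 chemokine-related genes outside the symbol rule, CMKLR1 (30291 bp, 3.19% kept) and CCRL2 (9512 bp, 0 kept) had control peaks, and the platelet chemokine genes PF4, PF4V1 and PPBP had none in either list.

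The myeloid markers kept 20.8% of their summed control length, against 11.6% over all genes, with MPO at 63.4% and CEBPA at 68.1%, and ITGAM kept 0. B cell markers kept 21.4%, nearly all at CD79A, and erythroid and megakaryocyte markers 26.6%, all at KLF1. Epithelial and fibroblast markers kept 0.235% and 1.12%, and T cell markers 0. A share of this size was therefore not particular to the myeloid markers. By count, B cell markers had a control peak at 5 of 5 genes and a SNDX-50469 peak at 3. Epithelial markers had them at 3 and 1 of 4, and fibroblast markers at 2 and 1 of 4. Erythroid and megakaryocyte markers on the autosomes had them at 3 and 2 of 4. Over all genes the shares were 80.0% and 54.0%. Peak presence within 5 kb of a gene is thus common in the control list and is no measure of expression.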

How the data were processed

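H3K27Ac ChIPmentation of MOLM13 cells was analysed from 1 deposited list of broad peaks per condition, grouped by the labels. The submitters' processing notes name Trim Galore 0.6.5, Bowtie2 2.3.4.2, Picard 2.9.0, MACS2 2.1.2 and GRCh38, while the supplementary methods name TopHat2 and hg38; the calling options and the use of the inputs are not given in the sources used here. For each peak the authors' deposited lists hold a score, a ratio (fold over background), a −log10 p and a −log10 q, each relative to its own library. The score was not used. Depth is unknown, since the lists hold no read counts.

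Intervals were compared with Python 3.11.15, numpy 2.4.6, pandas 2.3.3 and scipy 1.17.1, after tests on simulated data. Peaks sharing 1 bp or more counted as shared. Genes are those of RefSeq GRCh38.p14 on the primary chromosomes, with 5 kb added on both sides. The 5′ end came from the RefSeq promoter table for 44 of the genes and from the outermost annotated end for 19, with strands matched by symbol to GENCODE, whose coordinates are of an older build and were not used. 1 gene of the symbol rule is not reported here and was left out of every count of members. Neighbours were grouped across gaps of under 200 kb. Members, gene lists and the rule for named genes were chosen with earlier results of these data known. The rule gives values for the 12 genes with most control coverage, for every gene with SNDX-50469 coverage and for any gene covered more after treatment, of which there was none; of each pathway list it takes the 3 genes with most control coverage and the 2 with the highest and the lowest kept share among those with at least 5 kb in control. Values of further genes were added after they were seen. Samples of 1 per condition allow no test. Other ranges and cutoffs were tried as alternatives.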

Additional observations from a re-analysis of the deposited data

How the results depend on the processing

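With the gene body alone, a SNDX-50469 peak was present at 10 genes in place of 19, and the summed kept share was 9.03% in place of 9.34%; with 2 kb on both sides that share was 9.86%. With 50 kb on both sides 45 genes had a SNDX-50469 peak, 18 in place of 35 kept none, the summed kept share was 8.66% and the median kept share 3.03% in place of 0. Within 5 kb of the 5′ end the summed kept share was 12.1%, with overlapping ranges merged into 59 regions 9.59%, and without the near-identical copies 7.28%. With a −log10 q of at least 5 in both lists, 14 genes had a control peak and 0 a SNDX-50469 peak, so that 14 were lower, 14 kept none and the summed kept share was 0; of control peaks 4.76% were kept, which is 1 of 21, the peak beside XCR1. With the common −log10 p of 3.93, 32 genes had a control peak, 32 were lower, 16 kept none, the summed kept share was 13.0%, the median kept share 0.364% and 29.5% of 78 control peaks were kept. Asking for cover over most of a control peak lowered the kept peaks from 10.5% to 2.25%. A higher covered length with SNDX-50469 appeared in 3 of the 8 alternatives, at CCL28 near the 5′ end, at CCR4 with 50 kb, and at CCL14 and CXCR1 with the common cutoff. No paired analysis was possible because no result comes from a test, with 1 library in each condition; for the same reason no library could be left out. The files give no depth, so a region without a SNDX-50469 peak was not called there, and loss of the mark was not shown.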
